A study of Homo sapiens with 4 samples.

Results

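The IGF2BP proteins, IGF2BP1, IGF2BP2 and IGF2BP3, are RNA-binding proteins that read N6-methyladenosine (m6A), and their own transcripts are the subject here. Each protein has RNA recognition motifs and KH domains. The KH domains contact methylated messages, and binding is known to protect those messages from decay. IGF2BP1 and IGF2BP3 are known as oncofetal proteins, abundant in the embryo, low in most adult tissues and switched on again in many tumours. IGF2BP2 stays expressed in many adult tissues and is known for its link to metabolism.

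m6A was mapped by antibody pull-down of RNA and sequencing in GES-1, a cell line that the labels give as human gastric epithelium, grown in RPMI-1640 medium. The series held 4 samples: an input and an m6A immunoprecipitation from cells with no treatment, and the same pair from cells given chenodeoxycholic acid (CDCA), a primary bile acid, at a dose of 100 µM over 48 h. Only the immunoprecipitations' lists were used, and the inputs were not analysed here as samples. There was 1 library per condition, which allows no test between conditions. Intervals are 95% Clopper-Pearson (exact binomial) and cover counting error alone. Some cell line registers list GES-1 as misidentified, and whether the cells are what their label says was not checked, because peak lists hold no expression levels.

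The peaks were chosen as those with a summit inside a fixed span of each gene on hg19: chromosome 17 at 47074000 to 47134000 on the plus strand for IGF2BP1, chromosome 3 at 185361000 to 185543000 on the minus strand for IGF2BP2, and chromosome 7 at 23349000 to 23511000 on the minus strand for IGF2BP3. This gave 36 peaks of the 115281 in both lists: 22 of 63093 in the control list and 14 of 52188 in the CDCA list. The family was chosen from these same lists, because the 1 Mb window with the largest control excess, chromosome 3 at 185 to 186 Mb, contains IGF2BP2. The peak counts of IGF2BP2 are therefore a description and support nothing. The spans were 60 kb, 182 kb and 162 kb long. The RefSeq genes on GRCh38.p14 measure 59588, 181913 and 160283 bp, so each span matches the gene's length to within 1717 bp. No hg19 annotation was used, and exons, introns and untranslated regions are therefore not told apart.

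Strand, gene copies and transcript level limit what a peak in these spans can be assigned to. The lists give no strand, and in the RefSeq table the antisense RNA IGF2BP2-AS1 lies inside IGF2BP2, so reads of the pair cannot be told apart. The table also holds 3 pseudogenes named after IGF2BP2 and 2 named after IGF2BP3, and how reads with several matches were placed is not stated in the sources used here. In bulk RNA, a peak that is missing from a list can reflect less transcript as well as less methylation, and the lists do not separate these.

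IGF2BP3 had the most peaks of the 3 genes in both conditions, IGF2BP2 was listed mainly in control cells, and IGF2BP1 had few peaks in either. IGF2BP1 held 3 control and 2 CDCA peaks, IGF2BP2 8 and 2, and IGF2BP3 11 and 10. Over all peaks the CDCA list made up 45.3% of both lists. Its part was 40% for IGF2BP1 (5.27 to 85.3), 20% for IGF2BP2 (2.52 to 55.6) and 47.6% for IGF2BP3 (25.7 to 70.2). The intervals of IGF2BP1 and IGF2BP3 hold 45.3%, so at these counts a departure from the whole lists was not detectable for either gene. That of IGF2BP2 holds it too, but this gene was reached through a control excess, so its interval tests nothing. Together the 3 genes had 38.9% of their peaks in the CDCA list (23.1 to 56.5), a value that includes the IGF2BP2 peaks and is a description.

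**Figure D1:**
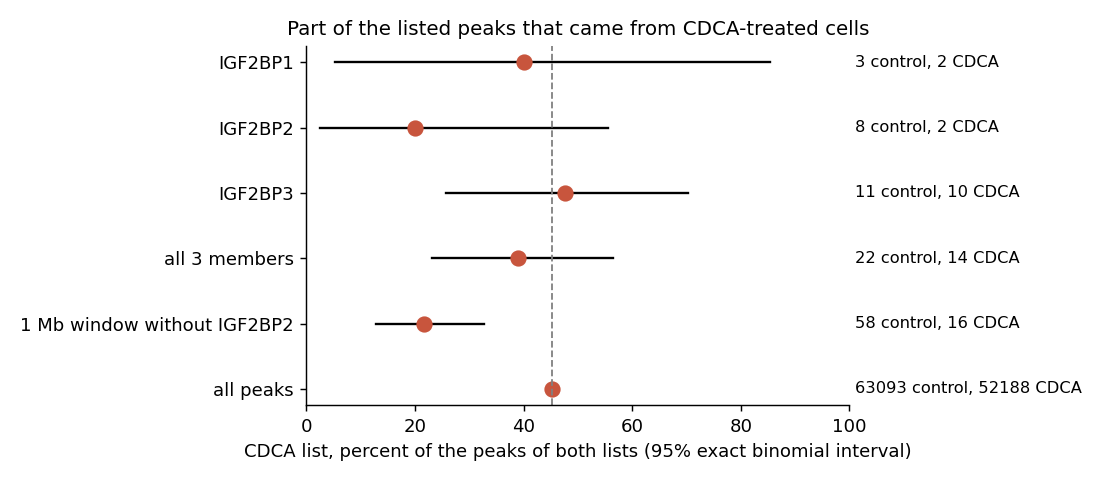
The points give the CDCA list's percent of the peaks of both lists, with exact 95% binomial intervals as lines, for each gene, for the genes together, for the 1 Mb window without IGF2BP2 and for all peaks; the dashed line stands at 45.3%. The intervals of the 3 genes cross the line, and that of the window without IGF2BP2 (12.9 to 32.7) lies below it, as the choice of this window for its control excess had fixed.

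Few of the family's peaks were found at the same place in both conditions. A peak counted as shared if at least 1 of its bases lay in a peak of the other condition. Of the control peaks in the 3 genes 3 of 22 were shared (13.6%, 2.91 to 34.9), against 18.2% over the whole control list. Of the CDCA peaks 3 of 14 were shared (21.4%, 4.66 to 50.8), against 22.2% over the whole CDCA list. Both shares are near those of all peaks. Shared sites numbered 0 in IGF2BP1, 1 in IGF2BP2 and 2 in IGF2BP3.

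**Figure D2:**
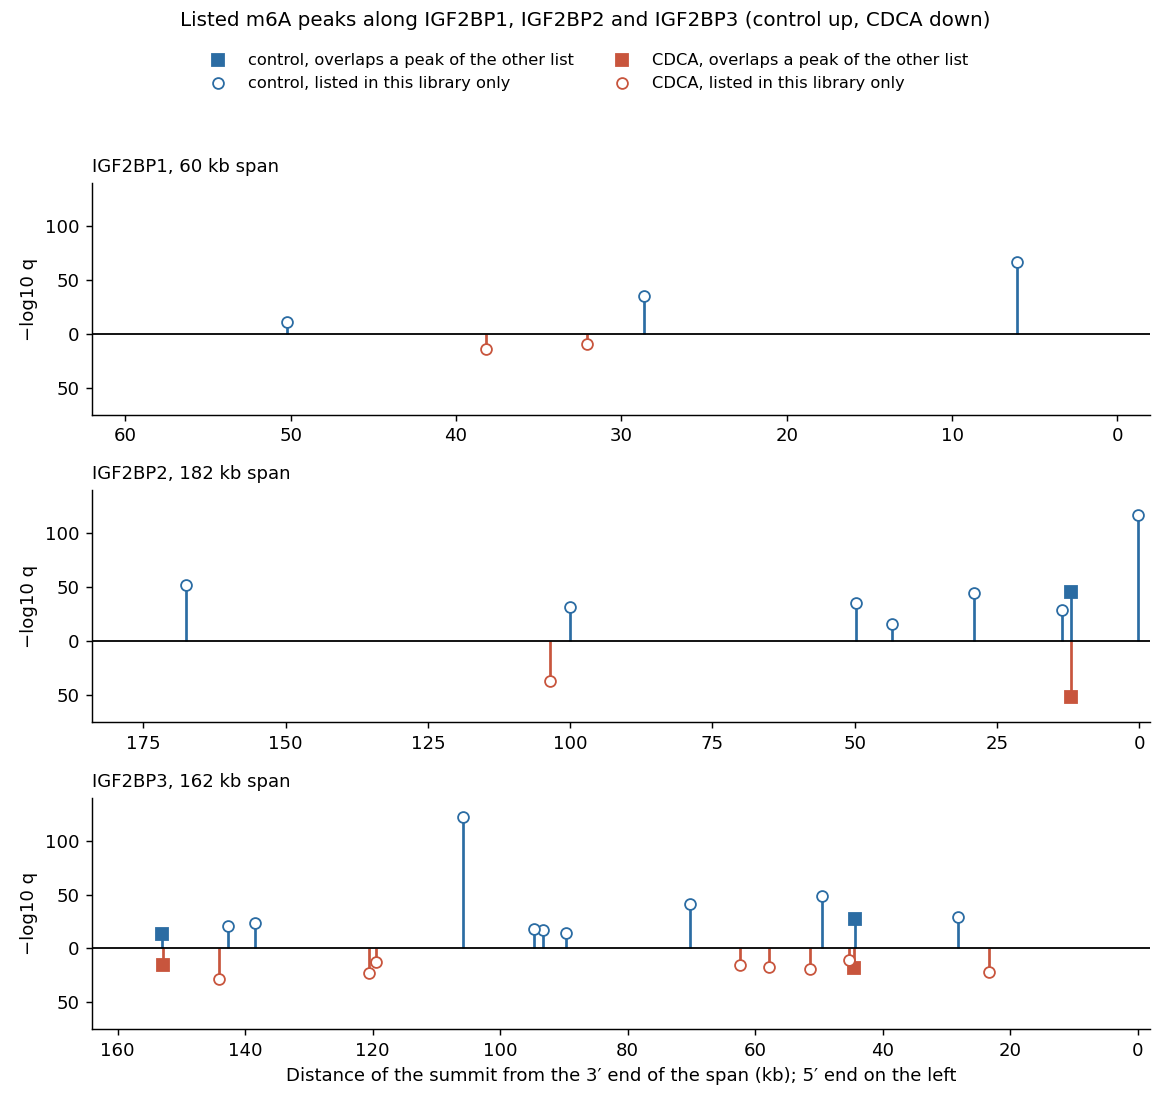
Each stem is a listed peak at its summit's distance in kb from the 3′ end of the gene's span, with control −log10 q drawn upwards and CDCA −log10 q downwards; filled squares overlap a peak of the other list and open circles do not. A single position in IGF2BP2 and a pair in IGF2BP3 carry squares on both sides, and the tallest stems of each gene are in control.

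IGF2BP2 had its peaks towards the 3′ end in control cells. Of the 8 control peaks 6 lay nearer the 3′ end than the 5′ end, all of them within 49.7 kb of it. The most significant one, at 185360922 to 185361300, had a −log10 q of 117, a fold enrichment of 8.70 and 241 fragments at its summit. Fold enrichment is the authors' ratio of summit height to local background, and −log10 q is their significance, set within each list. This leading peak stood at the very edge of the span, with its summit 0.112 kb inside. The closest CDCA peak lay 5421 bp off, outside the gene's span.

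The single IGF2BP2 site listed in both conditions lay about 12 kb from the 3′ end. In control it spanned 185372792 to 185373135, with a fold of 7.90, a −log10 q of 45.3 and 98 fragments. In CDCA-treated cells it spanned 185372827 to 185373080, with a fold of 8.46, a −log10 q of 52.2 and 144 fragments. The CDCA peak lay wholly within the control peak, over 254 bp, and the summits were 87 bp apart. The site thus looked alike in place and fold in both lists. The local backgrounds were 9.82 and 10 scaled fragments, each on the scale of its own list, and were not compared.

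The other IGF2BP2 peaks were listed in 1 library only. The control peak next in significance was far from the others, at 185528289 to 185528636 near the 5′ end of the span, with a fold of 7.75 and a −log10 q of 52.4. The peak at 185389857 to 185390127 followed, with 8.72 and 44.3. Then came the peak at 185410529 to 185410834, with 8.42 and 35.6. None of these had a CDCA peak within 16 kb. The remaining 3 control peaks had a −log10 q of 16.4, 29.1 and 31.7, and folds of 6.38, 6.04 and 7.19. The only CDCA peak without a partner, at 185464451 to 185464755, had a fold of 8.02 and a −log10 q of 37.0. It lay 3237 bp from a control peak at 185460977 to 185461213, so both lists had a peak in this middle stretch of the gene, but not at 1 site.

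All IGF2BP2 peaks combined low fold with high background. The 8 control folds ran from 6.04 to 8.72 with a median of 7.83, and the CDCA folds were 8.02 and 8.46. Over the whole lists the medians were 9.67 and 8.63, and no listed peak of either list had a fold below 6. All 8 control and both CDCA peaks were thus below the median fold of their list (49.6% and 49.8% of all peaks are). Their local background, computed from height and fold, had a median of 8.87 scaled fragments in control (4.56 to 23) and values of 7.50 and 10 in CDCA. The list medians were 1.36 and 1. High background beside a low fold means that these summits were called on many fragments: the control peaks had between 40 and 241, against a list median of 30.

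A background above the list median was common to all peaks of the family. It held for 22 of 22 control and 14 of 14 CDCA peaks, against 50% and 49.9% of all peaks. The genes still differed in level. The median background in control was 8.87 at IGF2BP2, 3.80 at IGF2BP3 and 1.60 at IGF2BP1, and the CDCA medians were 8.75, 2.88 and 1.55, which gives the same order. The IGF2BP1 median in control hides 1 peak at 12.3, the other two standing at 1.56 and 1.60. Folds below 10 made up 17 of 22 control peaks and 12 of 14 CDCA peaks, against 53% and 64.7% of all peaks.

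**Figure D3:**
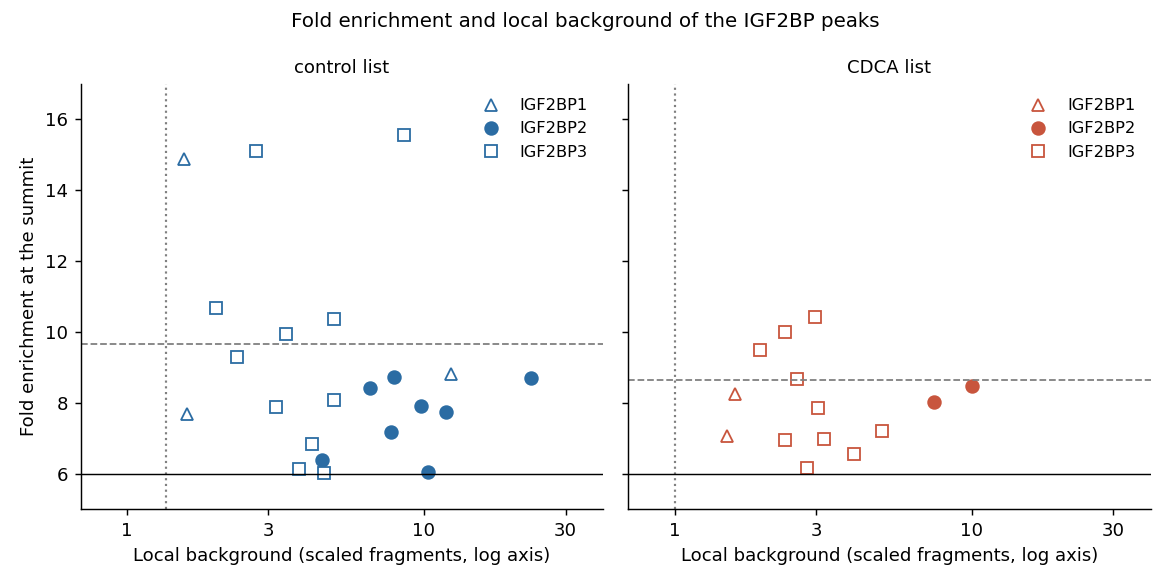
Each symbol is a listed peak of IGF2BP1 (triangles), IGF2BP2 (filled circles) or IGF2BP3 (squares), by local background in scaled fragments on a log axis and fold enrichment; dashed and dotted lines mark the list medians and the solid line the fold of 6 below which nothing was listed. All symbols lie right of the dotted lines, and all IGF2BP2 circles lie below the dashed ones.

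Peaks with a background in the range of the IGF2BP2 control peaks were shared more often over the whole list than those of IGF2BP2. Of 7969 control peaks with a background of 4.56 to 23, 50.8% were shared and the median fold was 9.11, whereas 1 of the 8 IGF2BP2 peaks was shared (12.5%, 0.316 to 52.7). The interval still includes 50.8%. IGF2BP2 was reached through a control excess and had 2 CDCA peaks, so few of its control peaks could be shared. The lower share was thus largely set by the choice and is a description. Of 1133 CDCA peaks with a background of 7.50 to 10, 67.0% were shared, beside 1 of the 2 at IGF2BP2. These ranges were set after the values had been seen.

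The lists leave out peak numbers at all 3 genes. Every peak carries a running number in genome order, and over the whole lists 57.3% of control and 52.1% of CDCA numbers are listed. Between the first and the last listed control peak of IGF2BP2 there were 25 numbers, of which 8 are listed and 17 skipped. In the CDCA list the 2 listed peaks are the ends of a run of 5 numbers. Counting out to the nearest listed peak on either side of the span, 28 control and 23 CDCA numbers fall in or beside IGF2BP2. At IGF2BP3, 5 of 16 control numbers and 6 of 16 CDCA numbers between the outer listed peaks were skipped, and at IGF2BP1 3 of 6 and 2 of 4. These runs are short, and whether they differ from the whole lists was not tested. The counts of 8 and 2 peaks at IGF2BP2 are thus the listed part of at most 28 and 23 numbers. A skipped number gives neither a position nor a fold, and the flanking CDCA peaks lie farther out (5.73 and 18.2 kb from the span, against 0.615 and 6.27 kb in control). All 7 control peaks of IGF2BP2 without a CDCA partner had at least 1 skipped CDCA number between the listed CDCA neighbours. These are not 7 separate observations, because most of them lay between the 2 listed CDCA peaks and share the same 3 skipped numbers. The same share over all peaks without a partner was not computed.

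**Figure D4:**
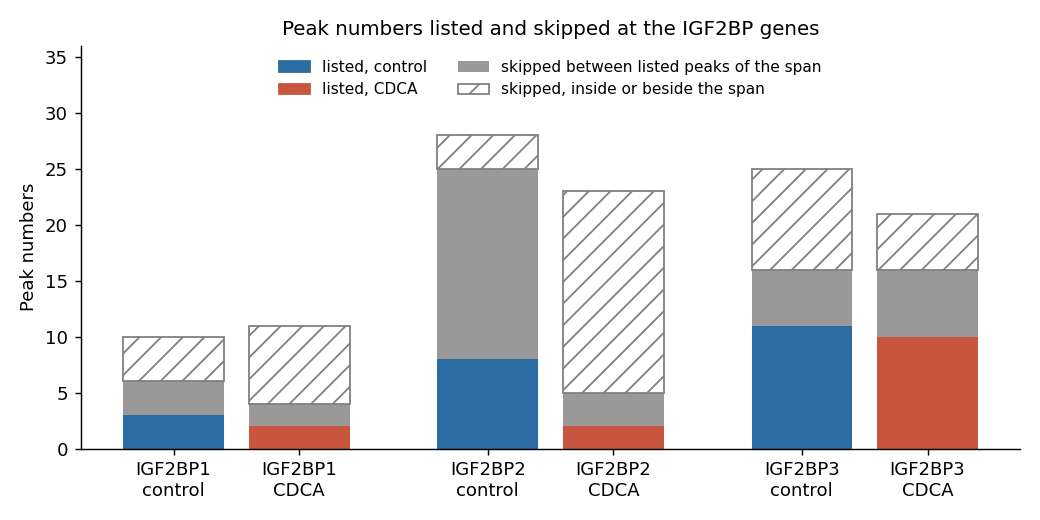
The bars count peak numbers at each gene and list: listed ones in colour, those skipped between listed peaks of the span in grey, and further skipped ones that lie in or beside the span hatched. IGF2BP2 in control had 8 listed and 17 skipped between them, and its CDCA bar reaches 23 only through numbers whose place is not fixed.

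The control excess of the window around IGF2BP2 lay mostly outside the gene. Of the window's 66 control and 18 CDCA peaks, 58 and 16 lay outside the span. IGF2BP2 covers 18.2% of the window and held 12.5% of its excess of 48 control peaks. The CDCA part was 21.6% outside the gene (12.9 to 32.7) and 20% inside it (2.52 to 55.6). Since the window was chosen for its excess, both values are descriptions, and the few peaks inside the gene do not show that the ratios are alike. Control peaks were denser outside the gene, with 7.09 per 100 kb against 4.40 inside, and in CDCA the densities were 1.96 and 1.10.

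The excess reached both sides of IGF2BP2. On the side of its 3′ end, towards the neighbouring gene SENP2 in the RefSeq order, the window held 36 control and 11 CDCA peaks. On the side of its 5′ end, towards TRA2B, it held 22 and 5. Control peaks outnumbered CDCA peaks in 16 of the 18 bins of 50 kb with any peak, and the reverse was seen in 1. In the adjoining windows the CDCA part was 39.6% at 184 to 185 Mb (25.8 to 54.7) and 43.5% at 186 to 187 Mb (23.2 to 65.5). Their excess could not be larger than that of a window chosen for the largest excess. The choice did not fix their CDCA part, and the difference was not tested.

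**Figure D5:**
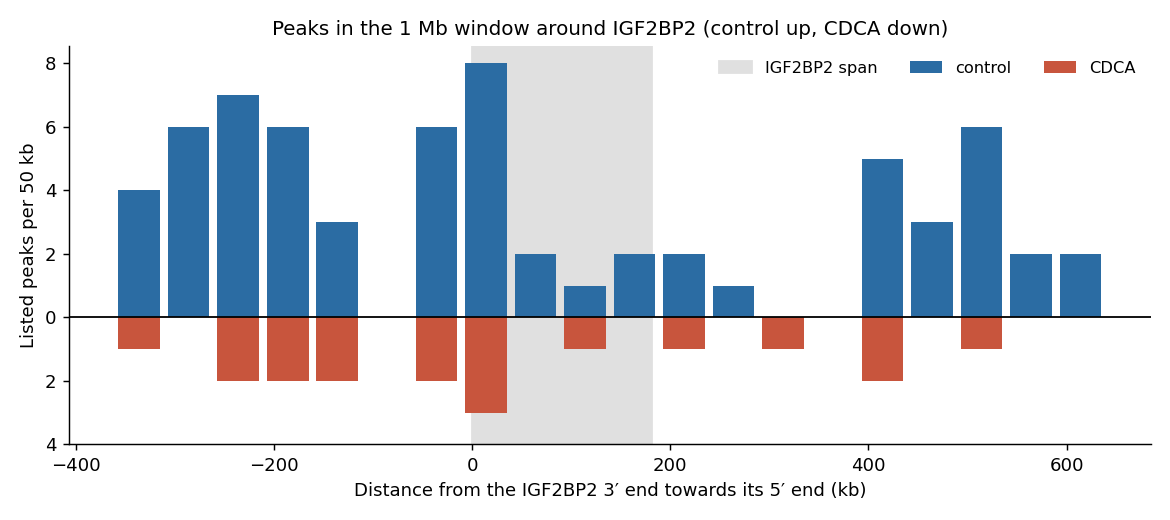
Bars give listed peaks per 50 kb, control upwards and CDCA downwards, by distance in kb from the 3′ end of IGF2BP2, whose span is shaded; the bin at its 3′ edge also counts peaks just outside. Control bars are the taller ones in 16 bins, on both sides of the gene.

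Most peaks of the window lay outside the IGF2BP2 span, and so did most of its stronger ones, many of them close to the gene's 3′ end. A fold of at least 10 was reached by 27 of 58 control and 4 of 16 CDCA peaks outside the gene. Inside it, 0 of 8 and 0 of 2 did. Over the whole lists, 53% of control and 64.7% of CDCA peaks had a fold below 10. A −log10 q of at least 50 was reached by 15.3% and 13.4% of the whole lists. In the window it was reached by 9 of 58 control and 2 of 16 CDCA peaks outside the gene, and by 2 of 8 and 1 of 2 inside. Of these, 5 of the 11 control peaks and 3 of the 3 CDCA peaks lay within 12 kb of the gene's 3′ end, a distance set after the values had been seen, and 1 of each list was inside the span. The strongest site of the window lay 5694 bp beyond the 3′ end of the IGF2BP2 span, with a control peak from 185355116 to 185355469 (fold 26.0, −log10 q 578) and a CDCA peak from 185355102 to 185355500 (fold 16.4, −log10 q 704). It was shared, and at 1356 fragments its CDCA summit was the tallest of the window.

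The limit of the span decided which of these peaks counted. Just outside it, 615 bp beyond, lay a control peak at 185360222 to 185360569 with a fold of 6.47 and a −log10 q of 109, and the next, at 185355718 to 185356468, had 17.4 and 385. Neither had a CDCA partner. The closest CDCA peak lay 4721 bp from the former and only 217 bp from the latter. It was the peak at 185355102 to 185355500, with a −log10 q of 704 the most significant CDCA peak of the window. Just inside stood the leading IGF2BP2 peak with a −log10 q of 117. No annotation was used that would place the transcript end between them.

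The excess of IGF2BP2 can be set beside that of other stretches of its length, as a description, since the gene was chosen through its excess. Chromosomes 1 to 22 and X were cut into windows of 182 kb, of which 11577 held a peak. A control excess of at least 6 peaks, that of IGF2BP2, was found in 870 of them (7.51%). Among 5124 windows with at least 10 peaks in both lists together, a CDCA part of 20% or less was found in 102 (1.99%). The largest excess of any window was on chromosome 4 at 186186001 to 186368000, with 23 control and 5 CDCA peaks. Excesses of 17 followed in the windows 16926001 to 17108000 of chromosome 10 (18 against 1), 167986001 to 168168000 of chromosome 2 (23 against 6) and 55510001 to 55692000 of chromosome 5 (32 against 15). The window 51142001 to 51324000 of chromosome 14 had 22 against 6. The largest excess was 18 peaks, against the 6 of IGF2BP2. For the alternatives, the excess of IGF2BP2 was counted anew under each setting. With peaks limited to a −log10 q of at least 50, the gene had 2 control and 1 CDCA peaks. That smaller excess was reached by 51.8% of windows. With a fold of at least 10, where the gene had no peak, 78.6% of windows reached its excess. With equal numbers of peaks per list the gene kept 8 and 2 peaks, and 3.71% of windows reached its excess. With spans and windows widened by 5 kb on each side it had 10 and 2, and 3.24% did.

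IGF2BP3 had nearly equal numbers of peaks in both conditions. Of them, 2 of 11 in control (18.2%) and 2 of 10 in CDCA (20%) were shared, near the 18.2% and 22.2% of all peaks. Neither list had a peak in the last 23 kb at the 3′ end, and CDCA had none between 62.4 and 119 kb from it, where control had 5. Of the control peaks 4 lay nearer the 3′ end and 7 nearer the 5′ end, and of the CDCA peaks 6 and 4. The density was 6.79 peaks per 100 kb in control and 6.17 in CDCA, the highest of the 3 genes in both lists. Control folds ran from 6.03 to 15.6 with a median of 9.28, and CDCA folds from 6.15 to 10.4 with a median of 7.52.

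The strongest peak of IGF2BP3 was broad and listed in control only. It spanned 1024 bp at 23454330 to 23455353, with a fold of 15.6, a −log10 q of 122 and 172 fragments, and was the most significant peak of the whole family. CDCA-treated cells had their closest listed peak 12993 bp off, and the CDCA list skips 4 numbers between its neighbours on either side. No CDCA peak of IGF2BP3 passed a −log10 q of 28.5.

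The other leading control peaks of IGF2BP3 were weaker. The peak at 23398410 to 23398818 had a fold of 15.1 and a −log10 q of 48.6, and a CDCA peak at 23400281 to 23400483 (8.68 and 19.5) began 1462 bp beyond it. The peak at 23419096 to 23419481 had a fold of 10.4 and a −log10 q of 41.3. The peak at 23376904 to 23377305 had 9.94 and 29.5. Beside the first and the last of these the CDCA list skips no number, so no CDCA peak was numbered there beyond those listed.

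The shared sites of IGF2BP3 were not its strongest peaks. At 44.4 kb from the 3′ end, the control peak at 23393262 to 23393479 (fold 8.07, −log10 q 26.9) and the CDCA peak at 23393427 to 23393683 (9.48 and 18.3) met over 53 bp, with summits 111 bp apart. Near the 5′ end, the control peak at 23501920 to 23502119 (6.14 and 13.3) and the CDCA peak at 23501870 to 23502092 (6.97 and 15.0) overlapped by 173 bp, with summits 58 bp apart. The former is an edge contact between neighbouring summits, and the latter is the better matched pair. If both peaks had to reach a −log10 q of 20, neither site remained shared. Their summit heights rested on 55 and 42 fragments and on 33 and 44.

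In CDCA-treated cells the most significant IGF2BP3 peak was at 23492981 to 23493230, with a fold of 10.4, a −log10 q of 28.5 and 63 fragments. It lay 1159 bp from a control peak at 23491620 to 23491821 (9.28 and 20.7), and the control list skips no number beside it. The CDCA peaks that followed were at 23469518 to 23469717 (fold 10, −log10 q 22.8) and 23372061 to 23372426 (fold 7.20, −log10 q 22). Of the 8 CDCA peaks without a control partner, 5 stood where the control list skips no number. Of the 9 control peaks without a CDCA partner, 2 stood where the CDCA list skips none. Beside those peaks the other condition had no numbered peak beyond the listed ones. Several of the peaks stood in the same gap of the other list, and the share over all peaks was not computed. The counts are therefore a description and no comparison of the lists.

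IGF2BP1, the shortest of the 3 genes, had no site in common between the conditions. The counts were 0 of 3 control peaks (upper limit 70.8%) and 0 of 2 CDCA peaks (upper limit 84.2%). Both limits lie above the whole-list shares, which were 18.2% in control and 22.2% in CDCA. At such counts the lack of a common site does not set IGF2BP1 apart from the whole lists. The most significant IGF2BP1 peak was listed in control, 6.08 kb from the 3′ end of the span, at 47127736 to 47128288. This peak was 553 bp long, with a fold of 8.82, a −log10 q of 67.1 and 135 fragments on a background of 12.3. It stood apart from the other IGF2BP1 peaks, all of which had a background of at most 1.60. Its closest CDCA neighbour lay 25732 bp off, and the CDCA list skips 4 numbers between its neighbours.

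The other IGF2BP1 peaks had 22 to 43 fragments, beside list medians of 30 in control and 31 in CDCA. In control, the peak at 47105247 to 47105496 had 43 fragments, a fold of 14.9 and a −log10 q of 35.2. The peak at 47083620 to 47083819 had 22 fragments, 7.68 and 11.5. In CDCA, the peak at 47095721 to 47095934 had 32 fragments, a fold of 8.26 and a −log10 q of 13.5, and that at 47101804 to 47102003 had 26, 7.05 and 9.71. Neither CDCA peak reached a −log10 q of 20, whereas 2 control peaks did. That level is close to the median of the control list (19.9) and above that of the CDCA list (14.4). It is thus the stricter cut for CDCA, and the contrast shows no change between conditions. Both CDCA peaks lay nearer the 5′ end of the span, where control had 1 peak.

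Across the family, −log10 q rose no higher than 122 in control and 52.2 in CDCA. At a −log10 q of at least 100 there were 2 of 22 control peaks and 0 of 14 CDCA peaks, against 7.77% and 7.90% of all peaks. By their list's own ranking, the leading peaks of IGF2BP3 and IGF2BP2 in control stood above 93.4% and 93.2% of control peaks, and the leading IGF2BP1 peak above 89.0%. In CDCA the leading peaks stood above 87.1% of the list for IGF2BP2, 77.8% for IGF2BP3 and 46.8% for IGF2BP1. Ranks from lists of different length show no change between conditions.

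The IGF2BP proteins act with other RNA-binding proteins and on known target messages, and 13 such genes were looked up by approximate hg19 spans. Among 7 partner genes, 3 had a shared peak, 2 had no peak in either list (YBX1 and HNRNPU), and the other two had peaks in 1 list only (DHX9 with 2 in control, ELAVL1 with 1 in CDCA). Among 6 target genes, 3 had a shared peak, 2 had none in either list (ACTB and IGF2), and LIN28B had 1 in CDCA. In all, 7 of 16 peaks listed in control were shared (43.8%, 19.8 to 70.1), and so were 7 of 17 listed in CDCA (41.2%, 18.4 to 67.1). Over the whole lists 18.2% and 22.2% were shared, so the control interval lies above its list's share and the CDCA interval includes it. The intervals treat peaks of the same gene as independent. These control peaks had backgrounds of 4.02 to 103, above the list median of 1.36. Of all control peaks with a background of 4.56 to 23, 50.8% were shared. That range leaves out some of the 16 control peaks at both ends, so it is no matched comparison for their 43.8%. Both intervals overlap those of the IGF2BP genes, and the difference was not tested.

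Several of these genes carried sites far stronger than any in the IGF2BP genes, in both conditions. PABPC1, the poly(A)-binding protein of the cytoplasm, led with a −log10 q of 2578 in control (chromosome 8 at 101715243 to 101715746, fold 25.1) and 2058 in CDCA (101715144 to 101715774, fold 22.4). SYNCRIP, an RNA-binding protein found with IGF2BP1 on the MYC message, had 728 and 789 (folds 16.5 and 13.3). MATR3, a nuclear matrix RNA-binding protein, had 176 and 146 (17.1 and 14.5). The leading site was shared in each of these 3 genes.

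Among the targets, the transcription factor gene MYC had a shared site with a −log10 q of 356 and a fold of 14.1 in control and of 502 and 27.7 in CDCA. The local background there was 32.6 and 16.4 scaled fragments, and the summit heights were 473 and 482. Heights and backgrounds are scaled by a different step in each list (0.862 in control, 0.640 in CDCA). The summits held 548 and 753 fragments, so the like heights do not show like summits. CD44, a hyaluronan receptor, had 128 and 292 at its leading shared site (folds 6.97 and 10.5). HMGA2, a chromatin protein gene, had 6 control and 5 CDCA peaks, with a highest −log10 q of 51.5 in control and of 108 in CDCA, at a CDCA peak with no control partner (chromosome 12 at 66224275 to 66224629, fold 12.4).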

How the data were processed

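The genes, lists and windows were chosen with earlier results of these data known. hg19, MACS2 2.1.0 and TopHat2 2.0.13 come from the submitters' processing notes, which name no step for them. How the lists were filtered, and against which input, is not stated in the sources used here. The authors deposited 1 peak list per immunoprecipitation, not pooled, with positions counted from 1. Per the file headers, pileup is a signal (summit height), fold enrichment is a ratio, and significance is −log10 of a p-value and of a q-value.

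From these, peaks were assigned to a gene by summit, and sharing was taken as an overlap of at least 1 bp. Local background was (height + 1) / fold − 1. Summit fragments were height divided by its smallest step, 0.862 in control and 0.640 in CDCA, of which 100% of heights were whole multiples (tolerance 0.02 steps). The weakest summits had 12 and 15 fragments, and read depth is otherwise unknown. Spans of the 13 partner and target genes came from general knowledge of hg19, not an annotation, and 1 further gene of that list is not reported here. LIN28B and MYC have shorter spans (128 and 6 kb) than their RefSeq lengths (146307 and 7518 bp).

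Named peaks were every shared one, the 5 most significant per gene and list, and library-specific ones whose −log10 q reached 50. Of the other genes, those with a peak whose −log10 q reached 100 in either list were given values. Alternatives covered −log10 q, fold, equal list sizes, assignment, span width and overlap. Peak sequences and motifs were not analysed here. Overlap steps were tested on 5000 simulated peaks, with 100% given the right partner. Scripts ran under Python 3.11.15 with pandas 2.3.3, numpy 2.4.6, matplotlib 3.10.9 and scipy 1.17.1.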

Additional observations from a re-analysis of the deposited data

How the results depend on the processing

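Of 65 recomputed values, 49 stayed within the 95% interval of the reported one and 16 moved outside it. No paired analysis was possible because there was 1 library per condition, and for the same reason no library could be left out. Most moves came from filters that left few peaks. When −log10 q had to reach 20 or 50, or fold 10, the CDCA part of IGF2BP1 peaks was 0% (of 2, 1 and 1 peaks). At 50 the CDCA part of IGF2BP3 peaks was 0% of 1, and the shared part was 0% of 2 control and 1 CDCA peak of IGF2BP2 and 0% of 1 control peak of IGF2BP3. At 20 and at a fold of 10, the shared part of IGF2BP3 was 0% of 7 and 4 control and of 3 and 2 CDCA peaks. Windows with at least the control excess of IGF2BP2 were 7.51% as reported, 8.89% at a −log10 q of 20, 51.8% at 50, 78.6% at a fold of 10, 3.71% with equal numbers per list and 3.24% with spans and windows widened by 5 kb on each side. The excess of IGF2BP2 was counted anew under each setting, so these percents do not refer to 1 fixed excess. Where a filter left no peak, 7 values could not be computed. Depth in reads is unknown, and counts of 2 to 11 peaks per gene and list limit every share.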
